A study of Mus musculus with 58 samples.

Results

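The kidney's response to tetrachloroethylene (PCE) was set against its response to trichloroethylene (TCE) at the same molar dose, 6 mmol/kg, to ask which genes the 2 chlorinated solvents change by different amounts. The measure is a difference of responses on the log2 scale, PCE 6 mmol/kg against PCE vehicle minus TCE 6 mmol/kg against TCE vehicle, computed on raw counts summed over the transcripts of each gene. It uses every kidney library of those 4 groups, 11 of the 58 libraries in the series, of which 29 are kidney. The groups were 3 libraries of PCE 6 mmol/kg (1000 mg/kg), 2 of PCE vehicle, 3 of TCE 6 mmol/kg (800 mg/kg) and 3 of TCE vehicle. The mice were male B6C3F1/J, a first-generation hybrid strain, aged 5 to 6 weeks, although another label names C57BL/6. Each received 1 intragastric dose, and all 4 groups shared a vehicle of saline with 5% Alkamuls EL-620, a surfactant made from castor oil, at 5 mL/kg. The sources used here give no time from dose to sampling. What a replicate number marks is not in the labels, so p-values measure the spread between libraries. That spread was estimated from all 29 kidney libraries, other doses included. PCE carries chlorine where TCE carries hydrogen.

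Cytochrome P450 enzymes oxidize both solvents to chlorinated acetic acids, which activate PPARα, a nuclear receptor that turns on fatty acid oxidation genes in rodent liver and kidney. A minor route joins the solvents to glutathione, and cells of the proximal tubule process these conjugates to reactive cysteine derivatives. ATF4, a transcription factor of another pathway, raises genes of amino acid synthesis, amino acid transport and tRNA charging when amino acids run short or proteins misfold.

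The 11 libraries held 23462407 to 31858055 counts, and each pair of replicates differed by more than counting noise, by 14.6 to 143 times the chi-square expected from counting alone. The 4 widest pairs were those with replicate 3 of TCE vehicle (123 and 143) and those with replicate 1 of PCE 6 mmol/kg (60.8 and 72.7). Library 1 of PCE 6 mmol/kg stood farthest from its own group, at a mean distance of 0.622, against 0.531 and 0.552 for the other two. Markers of proximal tubule segments S1 and S2 were abundant, as the kidney label says, with 11 of 12 detected and Slc4a4 listed at 0 throughout. They summed to 54400 to 55500 CPM, read counts scaled to a fixed library total, with PCE 6 mmol/kg, 72800 to 74600 with PCE vehicle, 61500 to 67000 with TCE 6 mmol/kg and 70100 to 82100 with TCE vehicle. Most of that sum was 1 transcript, Kap, and without it the sums were 18900 to 23600 CPM with PCE 6 mmol/kg, 25500 to 25900 with PCE vehicle, 20400 to 22700 with TCE 6 mmol/kg and 19700 to 23100 with TCE vehicle. The median response of the 11 was -0.22 log2 units with PCE and 0.02 with TCE. In the difference it was -0.26, against 0.36 in PCE vehicle against TCE vehicle and 0.05 between the dosed groups. At an unadjusted p under 0.05, 1 of the 11 was lower in the difference, beside 3.44% of all genes. In bulk tissue, fewer cells of a type and less RNA per cell cannot be told apart. Sums of 10 fat markers spread widely within groups, at 37.9 to 503 CPM with PCE 6 mmol/kg, 24.6 to 82.3 with PCE vehicle, 48.6 to 500 with TCE 6 mmol/kg and 65.5 to 193 with TCE vehicle, and 0 of the 10 reached an unadjusted p under 0.05 in the difference.

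Trib3, Chac1 and Acot2 responded more to PCE than to TCE. They were the only genes of 14195 tested that passed a Benjamini-Hochberg adjusted p under 0.05 in edgeR's quasi-likelihood test of the difference, 0.0211% of genes higher, and 0 genes (0%) were lower. At an unadjusted p under 0.05, 592 genes were higher (4.17%) and 488 lower (3.44%), and DESeq2 called 38 higher and 11 lower after adjustment. The median difference over all genes was 0.02, 53.1% of genes lay above 0, and the 95% interval of a gene reached a median of 0.51 log2 units to each side. Against its own vehicle, PCE raised 253 genes (1.78%) and lowered 293 (2.06%), while TCE raised 9 (0.0634%) and lowered 16 (0.113%). Of the 546 genes called for PCE and the 25 called for TCE, 13 were called for both in the same direction, 2.38% of PCE's and 52% of TCE's, and 0 in opposite directions. Set directly against each other, the dosed groups differed in 93 genes higher with PCE (0.655%) and 32 lower (0.225%). That direct comparison uses no vehicle, whereas a gap between the vehicle groups enters the difference of responses. PCE vehicle against TCE vehicle called 0 genes in edgeR and in DESeq2, and the unadjusted p was under 0.05 for 574 higher (4.04%) and 581 lower (4.09%).

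**Figure D1:**
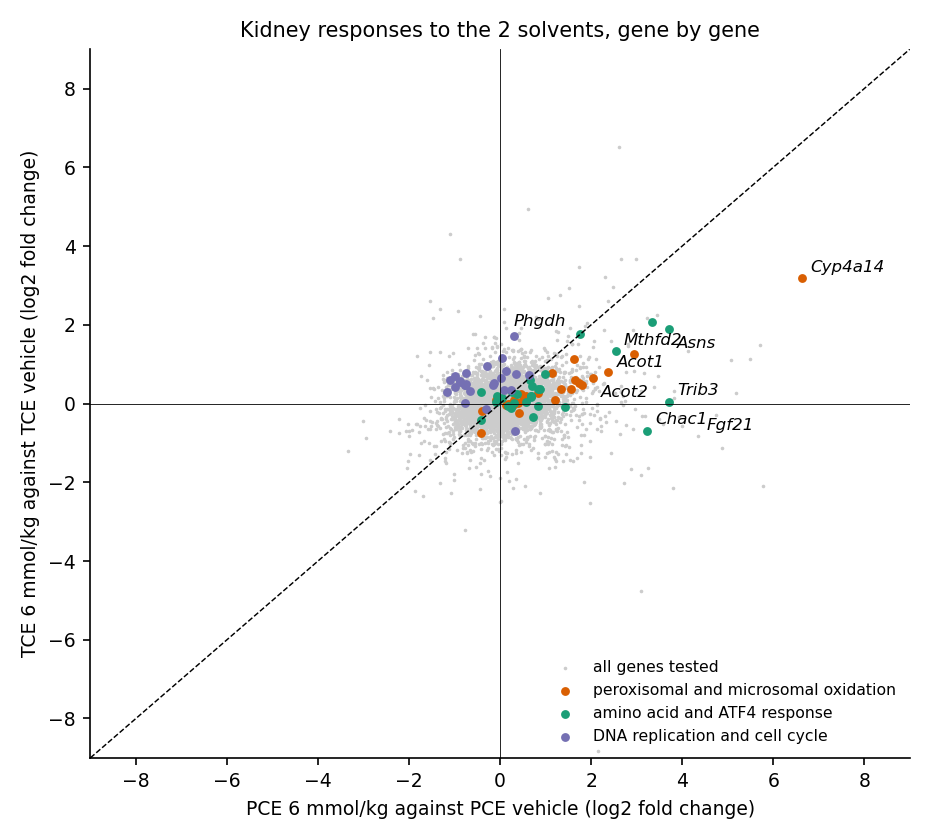
Log2 fold change of each of 14195 kidney genes with PCE 6 mmol/kg against PCE vehicle (x axis) and with TCE 6 mmol/kg against TCE vehicle (y axis), with grey dots for all genes and coloured dots for the members of 3 gene lists. On the dashed line both responses are equal: Phgdh at 1.75 and 1.77 lies on it, while Trib3 at 3.71 and 0.05 and Chac1 at 3.23 and -0.69 lie to its right.

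The promoters of the 3 called genes, and of Asns, which rose with both solvents, are shown because ATF4 and PPARα are known to act through short DNA elements near the start of their target genes. Each line gives the 250 bases before the gene's start from RefSeq on GRCm38.p6, 5′ to 3′ on the strand of the gene. Capitals mark matches to TGATGNAA, the core of the element bound by ATF4 with C/EBP proteins, searched on both strands (reverse complement TTNCATCA).
Trib3, chr2:152344061-152344310, minus strand: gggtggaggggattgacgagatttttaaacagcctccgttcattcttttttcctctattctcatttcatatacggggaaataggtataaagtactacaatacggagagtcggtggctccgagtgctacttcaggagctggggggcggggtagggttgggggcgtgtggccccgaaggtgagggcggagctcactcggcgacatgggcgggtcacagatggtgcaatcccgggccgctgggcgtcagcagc
Chac1, chr2:119350992-119351241, plus strand: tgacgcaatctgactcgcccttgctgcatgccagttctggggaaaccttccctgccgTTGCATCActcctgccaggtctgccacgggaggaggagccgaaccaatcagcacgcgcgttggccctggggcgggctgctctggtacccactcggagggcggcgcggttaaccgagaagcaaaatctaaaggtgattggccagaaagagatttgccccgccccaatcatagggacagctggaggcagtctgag
Acot2, chr12:83987611-83987860, plus strand: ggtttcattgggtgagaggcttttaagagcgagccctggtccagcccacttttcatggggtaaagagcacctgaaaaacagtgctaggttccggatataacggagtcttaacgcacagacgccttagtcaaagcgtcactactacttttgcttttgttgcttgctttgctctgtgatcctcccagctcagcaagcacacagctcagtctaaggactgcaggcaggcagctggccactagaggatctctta
Asns, chr6:7693210-7693459, minus strand: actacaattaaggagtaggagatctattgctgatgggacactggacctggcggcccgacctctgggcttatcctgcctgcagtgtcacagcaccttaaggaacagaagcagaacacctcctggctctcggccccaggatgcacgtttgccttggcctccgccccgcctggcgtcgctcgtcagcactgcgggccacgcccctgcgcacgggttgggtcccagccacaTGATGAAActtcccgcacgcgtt
Chac1 held 1 match, on the reverse strand at -193 to -186 counted from the start, and Asns held 1 on its own strand at -23 to -16. The windows of Trib3 and Acot2 held 0. Of all 32851 windows of this length, 3.45% held the letters. AGGNCANAGGNCA, a spelling of the element that PPARα binds (reverse complement TGNCCTNTGNCCT), was in 0.338% of all windows and in 0 of these 4. A match is a run of letters and not a shown binding site, and nothing about a factor follows from a window without one.

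Trib3 (chr2:152337425-152344060) encodes a pseudokinase that ATF4 is known to induce. Its level was 8.88, 12.3 and 6.19 CPM with PCE 6 mmol/kg, 0.692 and 0.701 CPM with PCE vehicle, 0.903, 1.37 and 1.14 CPM with TCE 6 mmol/kg and 0.658, 1.01 and 1.60 CPM with TCE vehicle. All 3 libraries of PCE 6 mmol/kg were above all 8 others, and those of TCE 6 mmol/kg lay within the range of their vehicle. Trib3 rose by 3.71 log2 units with PCE, its value with TCE was 0.05, and the difference was 3.66 ± 0.53 (SE, 95% interval 2.57 to 4.75, adjusted p = 0.00556 in edgeR). Chac1 (chr2:119351242-119354326) encodes an enzyme that degrades glutathione and is another known ATF4 target. It was at 7.96, 18.3 and 14.9 CPM with PCE 6 mmol/kg, 1.88 and 1.05 CPM with PCE vehicle, 1.48, 1.33 and 1.27 CPM with TCE 6 mmol/kg and 1.27, 0.806 and 4.47 CPM with TCE vehicle. Again the libraries of PCE 6 mmol/kg were the 3 highest, followed by replicate 3 of TCE vehicle, which stood apart from the other 7. Chac1 rose by 3.23 with PCE, its value with TCE was -0.69, and the difference was 3.93 ± 0.68 (SE, 2.51 to 5.34, adjusted p = 0.038 in edgeR).

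Acot2 (chr12:83987861-83993877) encodes a mitochondrial acyl-CoA thioesterase, a known PPARα target in rodents. Its level was 239, 142 and 129 CPM with PCE 6 mmol/kg, 41.5 and 40.9 CPM with PCE vehicle, 68.5, 65.4 and 61.5 CPM with TCE 6 mmol/kg and 44.6, 38.8 and 41.7 CPM with TCE vehicle. No library of PCE 6 mmol/kg overlapped with another group, the libraries of TCE 6 mmol/kg lay between these and the vehicles, and the vehicle groups overlapped. Acot2 rose by 2.04 with PCE, its value with TCE was 0.64 (adjusted p = 0.086 in edgeR), and the difference was 1.40 ± 0.24 (SE, 0.91 to 1.89, adjusted p = 0.0365 in edgeR). Acot2 sits beside the near-identical genes Acot1 and Acot3, so its counts may be shared with them.

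The calls of these 3 genes depended on the libraries used. With 1 of the 29 kidney libraries left out at a time, the difference was 3.27 to 3.91 for Trib3, 2.84 to 4.39 for Chac1 and 1.07 to 1.55 for Acot2, while Trib3 was called in 26 of 29 fits, Acot2 in 12 and Chac1 in 9. No gene was called without TCE vehicle replicate 3 or without either PCE vehicle library, where Trib3 had an adjusted p of 0.0506, 0.161 (without replicate 1) and 0.183 (without replicate 2) in edgeR. Acot2 and Chac1 also missed the threshold without any 1 of the TCE 6 mmol/kg libraries. A library of another dose enters only through the shared spread and scaling, so leaving it out could hardly move the size of a difference. Leaving out such a library took the call from Chac1 in 13 of 18 fits and from Acot2 in 10 of 18, at an adjusted p of up to 0.0668 in edgeR. Chac1 was lost without PCE 6 mmol/kg replicate 3 (adjusted p = 0.0731 in edgeR) and Acot2 without TCE vehicle replicate 1 (adjusted p = 0.077 in edgeR). Without PCE 6 mmol/kg replicate 2, 39 genes were called, these 3 among them. Fitted on the 11 libraries alone, 0 genes passed, with differences of 3.65, 3.92 and 1.39 for Trib3, Chac1 and Acot2. That fit compares the same libraries, so these sizes could hardly move either. With the vehicle groups pooled the differences were 3.01, 3.33 and 1.38.

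**Figure D2:**
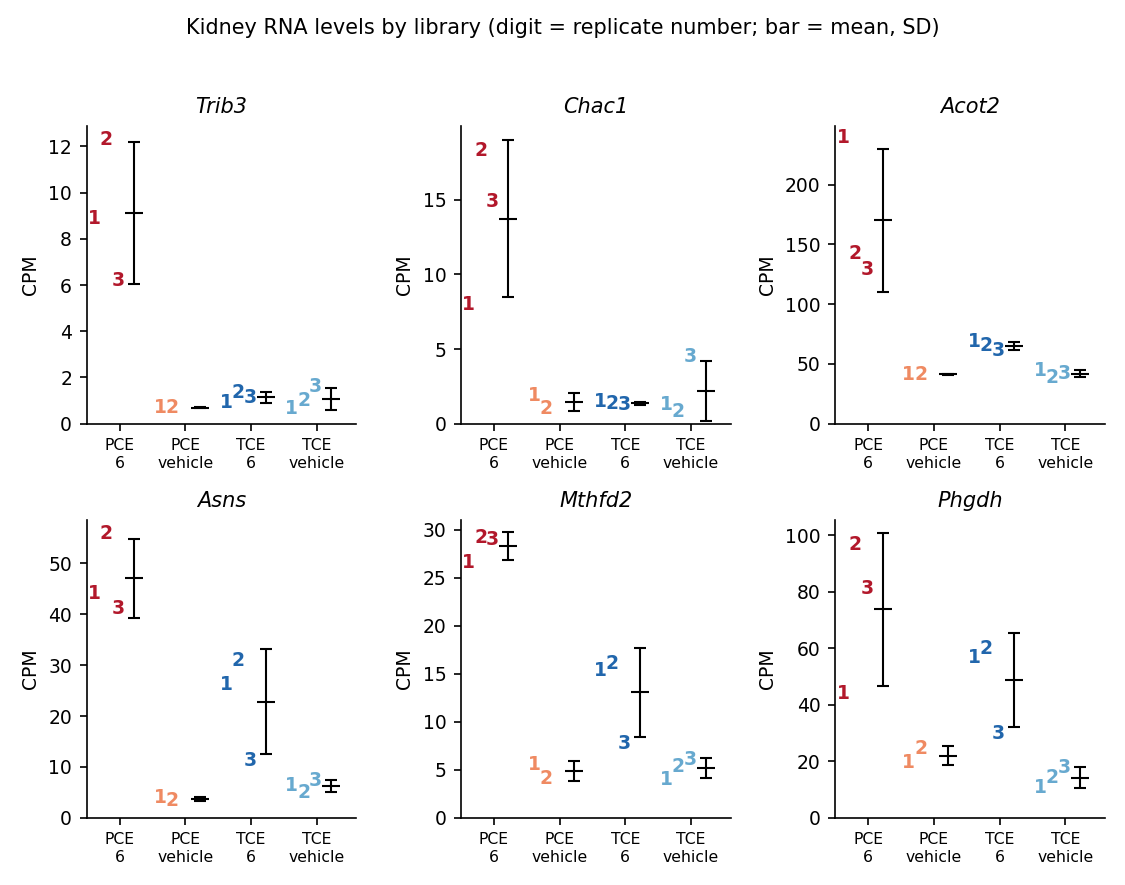
CPM of 6 genes in each library (y axis) in the groups PCE 6 mmol/kg, PCE vehicle, TCE 6 mmol/kg and TCE vehicle from left to right, with a digit for each replicate and a bar for the mean and SD. Trib3, Chac1 and Acot2 are highest in all 3 libraries of PCE 6 mmol/kg, while Asns, Mthfd2 and Phgdh stand above the vehicles with both solvents.

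Among genes of amino acid supply and the ATF4 response, 10 of 29 tested were higher in the difference at an unadjusted p under 0.05 and 0 lower. Over all genes 4.17% were higher and 3.44% lower. Trib3 and Chac1 were the members past the adjustment. The median of the list was 0.38, against 0.02 over all genes, and -0.02 for the same list in PCE vehicle against TCE vehicle. PCE against its vehicle raised 10 of the 29, beside 1.78% of all genes. TCE against its vehicle raised 3, Asns, Mthfd2 and Phgdh, beside 0.0634% of all genes. Asns, asparagine synthetase, was at 44.0, 55.9 and 41.2 CPM with PCE 6 mmol/kg, 3.92 and 3.35 CPM with PCE vehicle, 26.2, 31.0 and 11.3 CPM with TCE 6 mmol/kg and 6.36, 4.96 and 7.23 CPM with TCE vehicle. The groups did not overlap and ran, from high to low, PCE 6 mmol/kg, TCE 6 mmol/kg, TCE vehicle and PCE vehicle. Asns rose by 3.70 with PCE and by 1.89 with TCE, and the difference of 1.81 ± 0.51 (SE, 0.75 to 2.86) did not pass the adjustment (adjusted p = 0.3 in edgeR).

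Mthfd2, an enzyme of mitochondrial folate metabolism, was at 26.6, 29.2 and 29.0 CPM with PCE 6 mmol/kg, 5.57 and 4.14 CPM with PCE vehicle, 15.3, 16.1 and 7.75 CPM with TCE 6 mmol/kg and 4.03, 5.36 and 6.10 CPM with TCE vehicle. Both dosed groups were above both vehicle groups, PCE above TCE in every library, and the difference was 1.20 (0.35 to 2.06, adjusted p = 0.429 in edgeR). Phgdh, the first enzyme of serine synthesis, was at 43.9, 96.6 and 81.0 CPM with PCE 6 mmol/kg, 19.6 and 24.4 CPM with PCE vehicle, 56.7, 60.0 and 29.8 CPM with TCE 6 mmol/kg and 10.7, 14.1 and 17.9 CPM with TCE vehicle. The dosed groups overlapped in Phgdh and both lay above the vehicles. It rose by 1.75 with PCE and by 1.77 with TCE, with a difference of -0.02 whose interval, -1.01 to 0.96, covers a gap of about 1 log2 unit in either direction.

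Sesn2, a stress-induced inhibitor of the growth kinase mTORC1, was at 107, 85.6 and 99.7 CPM with PCE 6 mmol/kg, 59.5 and 57.7 CPM with PCE vehicle, 58, 51.9 and 65.4 CPM with TCE 6 mmol/kg and 60.3, 85.8 and 74.2 CPM with TCE vehicle. The libraries of PCE 6 mmol/kg were high, and 1 library of TCE vehicle reached the lowest of them. Its difference was 1.06 ± 0.24 (SE, adjusted p = 0.196 in edgeR). Pck2, the mitochondrial phosphoenolpyruvate carboxykinase, had a difference of 0.48, the glycine transporter Slc6a9 one of 0.50, and Cth, the enzyme that makes cysteine from cystathionine, one of 0.38. Eif4ebp1, a repressor of translation and known ATF4 target, had a difference of 1.10 (adjusted p = 0.248 in edgeR), from a rise of 1.90 with PCE and a value of 0.80 with TCE. Atf4 mRNA, whose protein is controlled mainly at translation, was at 1.12, 12.4 and 12.1 CPM with PCE 6 mmol/kg, 12.3 and 5.83 CPM with PCE vehicle, 9.16, 6.70 and 7.87 CPM with TCE 6 mmol/kg and 4.87, 6.37 and 9.52 CPM with TCE vehicle. Library 1 of PCE 6 mmol/kg had the lowest level of all 11, and the difference was -0.26 with an interval of -1.87 to 1.35. That library was also the lowest of its group for Atf5, a related factor, which was at 4.52, 32.8 and 23.5 CPM with PCE 6 mmol/kg, 2.34 and 1.72 CPM with PCE vehicle, 11.4, 8.22 and 7.16 CPM with TCE 6 mmol/kg and 1.53, 1.97 and 2.80 CPM with TCE vehicle. The difference of Atf5 was 1.25 (-0.30 to 2.80), and 1.72 without library 1 or 0.70 without library 2. Without that library 12 members of the list were higher.

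Of 20 enzymes that charge tRNAs, 6 were higher in the difference at an unadjusted p under 0.05 and 0 lower, beside 4.17% and 3.44% of all genes. Of these enzymes 0 passed the adjustment, and their median was 0.29. PCE raised 6 against its vehicle, beside 1.78% of all genes, and TCE against its vehicle called 0. Gars, glycyl-tRNA synthetase, was at 187, 168 and 155 CPM with PCE 6 mmol/kg, 102 and 101 CPM with PCE vehicle, 124, 128 and 115 CPM with TCE 6 mmol/kg and 107, 105 and 98.3 CPM with TCE vehicle. The libraries of PCE 6 mmol/kg were highest, those of TCE 6 mmol/kg came next, and neither overlapped with a vehicle. The difference of 0.50 ± 0.10 (SE, 0.30 to 0.70) had, with Khnyn, the smallest adjusted p of the genes not called (adjusted p = 0.0939 in edgeR). Iars, Aars and Yars, which charge the tRNAs of isoleucine, alanine and tyrosine, had differences of 0.50, 0.34 and 0.34, and each of them was also higher in the direct comparison of the dosed groups after adjustment.

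Chaperones of the endoplasmic reticulum, which misfolded protein induces through other factors, were not among the genes higher with PCE. Of 20 tested, 0 were higher in the difference and 1 was lower at an unadjusted p under 0.05, beside 4.17% and 3.44% of all genes. The 1 was Sec61b, a subunit of the protein channel, at -0.53 (-0.33 without library 1 of PCE 6 mmol/kg). The median of the list was -0.20. PCE against its vehicle lowered 8, beside 2.06% of all genes, and TCE against its vehicle called 0. The medians of the list in these comparisons were -0.66 and -0.39. Calr, the calcium-binding chaperone calreticulin, was at 497, 946 and 741 CPM with PCE 6 mmol/kg, 1420 and 1450 CPM with PCE vehicle, 919, 1040 and 1090 CPM with TCE 6 mmol/kg and 1300, 1680 and 1230 CPM with TCE vehicle. Both dosed groups lay below both vehicle groups. Calr fell by 0.98 log2 units with PCE, its value with TCE was -0.47, and the difference was -0.51 (-1.05 to 0.03), or -0.30 without library 1 of PCE 6 mmol/kg.

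Of 30 genes of peroxisomal and microsomal fatty acid oxidation, known PPARα targets, 15 were higher in the difference at an unadjusted p under 0.05 and 0 lower. Over all genes the shares were 4.17% and 3.44%. Acot2 was the only member of the list past the adjustment. The median of the list was 0.40, against 0.02 over all genes, and -0.05 for the list between the vehicle groups. PCE raised 16 of the 30 against its vehicle, beside 1.78% of all genes. TCE raised 0 and lowered 1, Eci3, by 0.75 log2 units, beside 0.0634% and 0.113% of all genes. In the direct comparison of the dosed groups 11 were higher with PCE and 0 lower, beside 0.655% and 0.225% of all genes. Without library 1 of PCE 6 mmol/kg, 10 were higher in the difference and the median was 0.29. The count was 8 with the 11 libraries alone and 23 with the vehicle groups pooled.

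Acot1, a cytosolic thioesterase next to Acot2, was at 601, 294 and 304 CPM with PCE 6 mmol/kg, 81.9 and 71.7 CPM with PCE vehicle, 186, 141 and 192 CPM with TCE 6 mmol/kg and 104, 94.0 and 97.6 CPM with TCE vehicle. PCE 6 mmol/kg was above TCE 6 mmol/kg, and both were above the vehicles, with no overlap. Its difference was 1.57 ± 0.36 (SE, adjusted p = 0.196 in edgeR). Cyp4a14, a microsomal fatty acid hydroxylase, was at 2480, 361 and 295 CPM with PCE 6 mmol/kg, 9.14 and 11.9 CPM with PCE vehicle, 173, 94.5 and 80.4 CPM with TCE 6 mmol/kg and 11.7, 17.1 and 9.37 CPM with TCE vehicle. The dosed groups did not overlap, but library 1 of PCE 6 mmol/kg was far above its fellows. Cyp4a14 rose by 6.63 with PCE, its value with TCE was 3.19 (adjusted p = 0.082 in edgeR), and the difference of 3.44 ± 1.09 (SE, adjusted p = 0.4 in edgeR) was 1.76 without that library. Its relative Cyp4a10 had a difference of 1.70 (adjusted p = 0.379 in edgeR) and 0.97 without the library. Genes of the Cyp4a cluster are near-identical, so counts may be split among them.

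Vnn1, a pantetheinase, was at 501, 218 and 244 CPM with PCE 6 mmol/kg, 91.4 and 93.8 CPM with PCE vehicle, 173, 171 and 168 CPM with TCE 6 mmol/kg and 131, 127 and 108 CPM with TCE vehicle. Every library of PCE 6 mmol/kg was above every one of TCE 6 mmol/kg, and PCE vehicle was below TCE vehicle. The difference was 1.31 ± 0.31 (SE, adjusted p = 0.196 in edgeR), or 0.84 without library 1. Ehhadh, the bifunctional enzyme of peroxisomal oxidation, was at 3820, 2260 and 1960 CPM with PCE 6 mmol/kg, 1170 and 1150 CPM with PCE vehicle, 1320, 1340 and 1380 CPM with TCE 6 mmol/kg and 1500, 1110 and 1140 CPM with TCE vehicle. Only PCE 6 mmol/kg stood apart, and TCE 6 mmol/kg lay within the range of its vehicle. The difference was 1.10 (adjusted p = 0.196 in edgeR), and that of the peroxisomal thiolase Acaa1b was 1.21 (adjusted p = 0.278 in edgeR), or 0.78 without library 1. Amacr, a racemase of branched-chain fatty acids, is not in the list of peroxisomal and microsomal genes and went the other way. It fell by 0.99 log2 units with PCE, and the difference was -0.77 (adjusted p = 0.197 in edgeR).

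**Figure D3:**
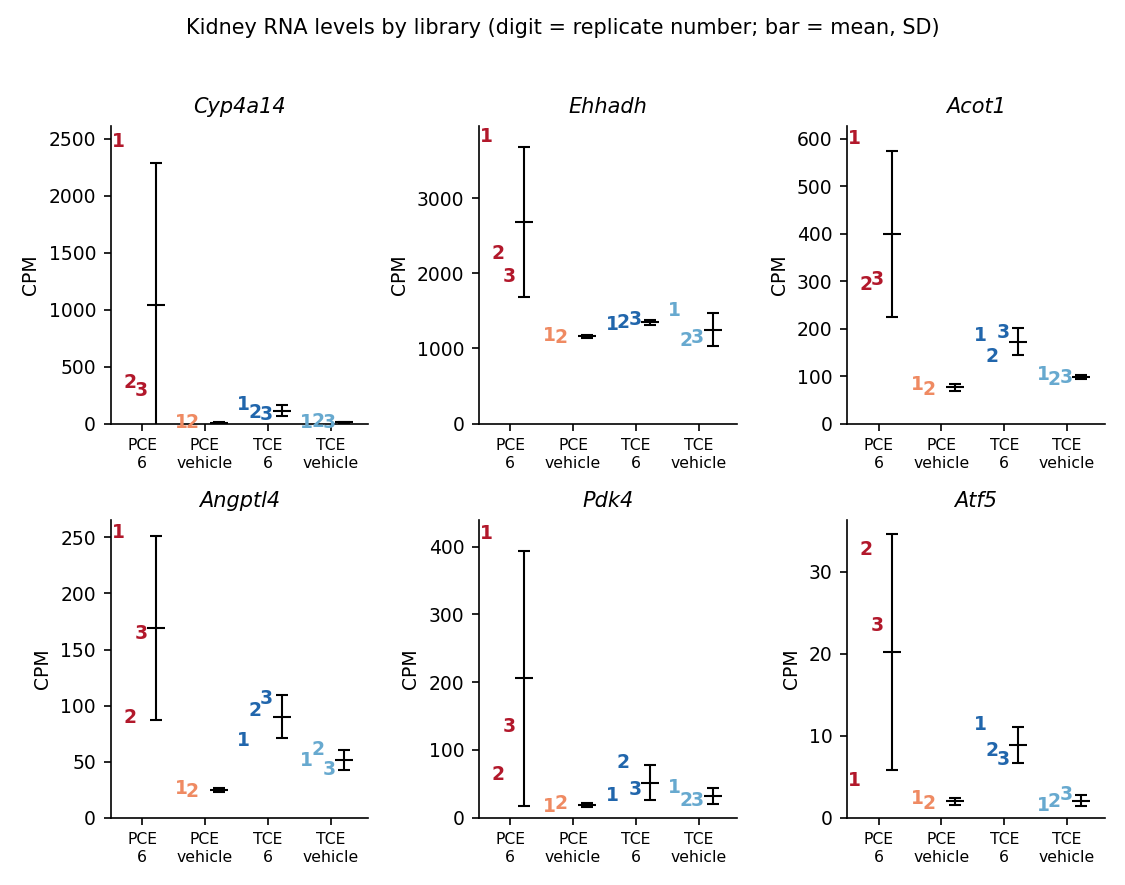
CPM of 5 genes of lipid handling and of Atf5 in each library (y axis), with the groups PCE 6 mmol/kg, PCE vehicle, TCE 6 mmol/kg and TCE vehicle from left to right, a digit for each replicate and a bar for the mean and SD. Replicate 1 of PCE 6 mmol/kg is the highest library for Cyp4a14 at 2480 CPM and Ehhadh at 3820 CPM and the lowest of its group for Atf5 at 4.52 CPM.

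Of 23 genes of mitochondrial fatty acid oxidation and ketone synthesis, 11 were higher in the difference at an unadjusted p under 0.05 and 0 lower. Over all genes the shares were 4.17% and 3.44%. The median of the list was 0.38. Without library 1 of PCE 6 mmol/kg 4 were higher and the median was 0.22, and without PCE vehicle replicate 1 the count was 7. Pdk4, the kinase that shuts off pyruvate oxidation, was at 419, 64.2 and 134 CPM with PCE 6 mmol/kg, 16.6 and 20.4 CPM with PCE vehicle, 32.4, 82.0 and 41.4 CPM with TCE 6 mmol/kg and 45.2, 25.8 and 25.5 CPM with TCE vehicle. The dosed groups overlapped, and the difference of 2.78 (0.79 to 4.77) was 1.73 without library 1. Cpt1a, which admits fatty acids to the mitochondrion, had a difference of 0.20 (-0.07 to 0.47), with a rise of 0.45 with PCE.

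Fatty acid uptake and lipid droplet genes numbered 18 tested, of which 7 were higher at an unadjusted p under 0.05 and 0 lower. Over all genes the shares were 4.17% and 3.44%. The list's median was 0.51, and its count of 7 was 4 without TCE vehicle replicate 3. Angptl4, a secreted inhibitor of lipoprotein lipase, was at 254, 89.8 and 164 CPM with PCE 6 mmol/kg, 26.3 and 23.3 CPM with PCE vehicle, 68.8, 95.7 and 106 CPM with TCE 6 mmol/kg and 50.9, 60.8 and 43.0 CPM with TCE vehicle. The dosed groups overlapped and the vehicle groups did not, PCE vehicle lying 1.06 log2 units below TCE vehicle. Its difference was 1.97 (adjusted p = 0.216 in edgeR), and the direct comparison of the dosed groups gave 0.91. Fgf21, a hormone of fasting, was at 1.68, 2.31 and 2.72 CPM with PCE 6 mmol/kg, 0.154 and 0.0637 CPM with PCE vehicle, 0.129, 0.185 and 0.0423 CPM with TCE 6 mmol/kg and 0, 0.0806 and 0.545 CPM with TCE vehicle. The libraries of PCE 6 mmol/kg were the only ones above 1 CPM, and the difference of 5.18 (2.80 to 7.57, adjusted p = 0.195 in edgeR) was 2.91 without TCE vehicle replicate 3. Fabp1, a fatty acid binding protein of the cytosol, was at 66.9, 70.9 and 52.8 CPM with PCE 6 mmol/kg, 12.8 and 13.1 CPM with PCE vehicle, 55.2, 44.2 and 44.4 CPM with TCE 6 mmol/kg and 9.16, 21.7 and 8.61 CPM with TCE vehicle. It rose by 2.29 with PCE and by 1.87 with TCE, the dosed groups overlapped, and the difference was 0.43 with an interval of -0.57 to 1.42.

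**Figure D4:**
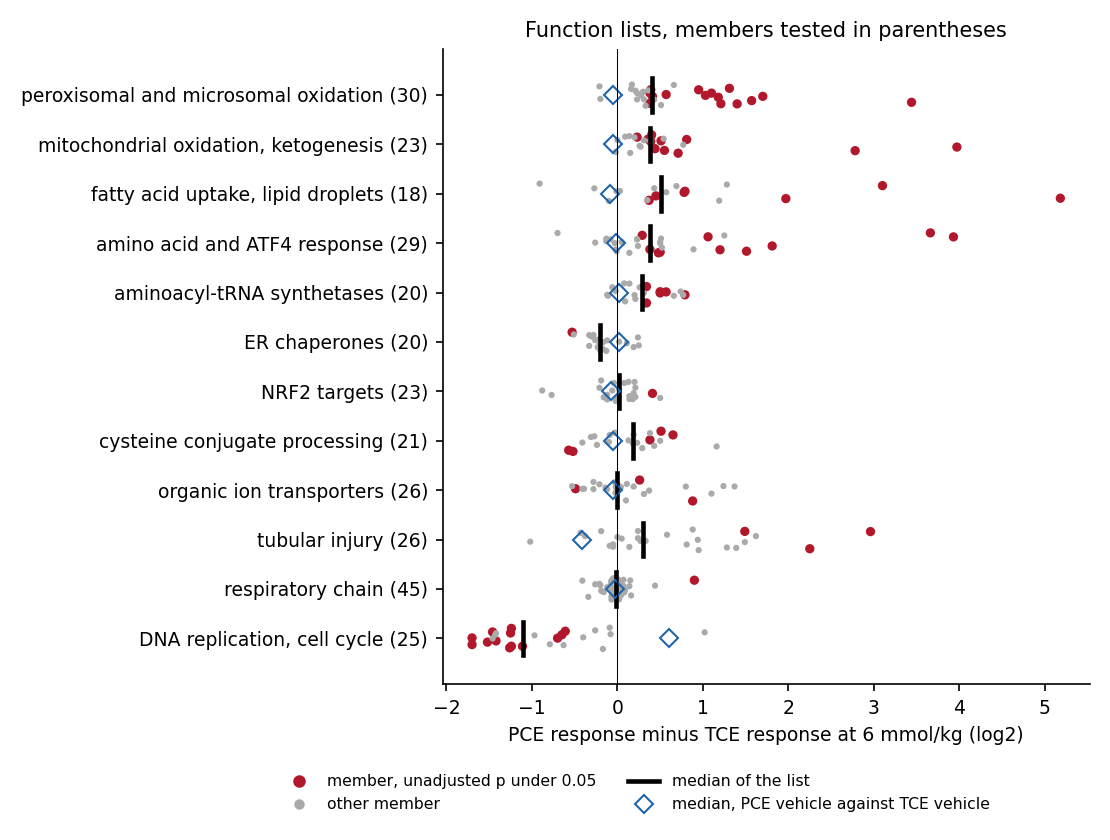
PCE response minus TCE response at 6 mmol/kg (x axis, log2) of the tested members of 12 gene lists (1 line each), with red points for members at an unadjusted p under 0.05, grey points for the others, a black bar at the list's median and an open diamond at its median in PCE vehicle against TCE vehicle. The medians of both oxidation lists, lipid uptake, the ATF4 response and tRNA synthetases lie at 0.29 to 0.51 with diamonds close to 0, and the cell cycle list lies at -1.11 with its diamond at 0.60.

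Of 25 genes of DNA replication and the cell cycle, 13 were lower in the difference at an unadjusted p under 0.05 and 0 higher. Over all genes 3.44% were lower and 4.17% higher. In this list 0 passed the adjustment, and the median was -1.11. Between PCE vehicle and TCE vehicle the median of the list was 0.60. There 10 were higher at an unadjusted p under 0.05, beside 4.04% of all genes, and 0 passed the adjustment. In the direct comparison of the dosed groups the median was -0.38 and 0 passed the adjustment. The count of 13 was 4 with the vehicle groups pooled, 5 without PCE vehicle replicate 2, and 8 without TCE vehicle replicate 1, TCE 6 mmol/kg replicate 2 or PCE 6 mmol/kg replicate 1. Mcm6, a subunit of the replicative helicase, was at 40.4, 45.1 and 52.0 CPM with PCE 6 mmol/kg, 46.8 and 54.5 CPM with PCE vehicle, 58.6, 67.3 and 56.4 CPM with TCE 6 mmol/kg and 44.9, 36.7 and 46.7 CPM with TCE vehicle. TCE 6 mmol/kg was above every other library, and PCE 6 mmol/kg overlapped with both vehicles. Mcm6 rose by 0.51 with TCE, its value with PCE was -0.14, and the difference was -0.65 ± 0.15 (SE, adjusted p = 0.196 in edgeR). Top2a, a topoisomerase of dividing cells, was at 1.36, 4.24 and 7.93 CPM with PCE 6 mmol/kg, 7.22 and 10.9 CPM with PCE vehicle, 6.00, 8.70 and 6.99 CPM with TCE 6 mmol/kg and 2.98, 4.35 and 5.96 CPM with TCE vehicle. PCE 6 mmol/kg spanned a wide range and overlapped with all 3 other groups, and the difference was -1.70 (-3.09 to -0.31), against -0.67 in the direct comparison.

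The 5 genes with the smallest unadjusted p on the lower side, none past the adjustment, were Ube2s, Hdc, Mcm6, Proser1 and Vwa1. Ube2s, a ubiquitin-conjugating enzyme of mitosis, had a difference of -0.51 (adjusted p = 0.152 in edgeR) and Proser1 one of -0.47 (adjusted p = 0.196 in edgeR). PCE vehicle was 0.29 above TCE vehicle for Ube2s and 0.25 above it for Proser1, and the dosed groups differed by -0.23 and -0.21. Hdc, histidine decarboxylase, was at 127, 200 and 212 CPM with PCE 6 mmol/kg, 417 and 360 CPM with PCE vehicle, 300, 289 and 296 CPM with TCE 6 mmol/kg and 195, 212 and 231 CPM with TCE vehicle. PCE 6 mmol/kg overlapped with TCE vehicle, and PCE vehicle was the highest group. Hdc fell by 1.11 log2 units with PCE, its value with TCE was 0.47, PCE vehicle was 0.87 above TCE vehicle, and the difference was -1.58 ± 0.36 (SE, adjusted p = 0.196 in edgeR). Vwa1, a matrix protein, was at 32.9, 39.4 and 38.3 CPM with PCE 6 mmol/kg, 74.9 and 69.9 CPM with PCE vehicle, 46.6, 54.0 and 74.0 CPM with TCE 6 mmol/kg and 71.9, 61.5 and 68.0 CPM with TCE vehicle. PCE 6 mmol/kg was below every other library and the vehicle groups overlapped, with a fall of 0.97 with PCE and a difference of -0.76 ± 0.18 (SE, adjusted p = 0.196 in edgeR). On the higher side Khnyn was at 0.72 (adjusted p = 0.0939 in edgeR), with 0.24 between the dosed groups and -0.48 between the vehicles.

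Cyp2e1, the main oxidase of TCE, was at 4690, 3410 and 3770 CPM with PCE 6 mmol/kg, 3790 and 3280 CPM with PCE vehicle, 2960, 3300 and 3960 CPM with TCE 6 mmol/kg and 3630, 3850 and 2770 CPM with TCE vehicle. All groups overlapped, and the difference was 0.17 (-0.34 to 0.68). Of 21 genes of oxidative metabolism 3 were higher and 2 lower at an unadjusted p under 0.05, beside 4.17% and 3.44% of all genes, and 19 of the 21 lay above 0. The median was 0.60, against -0.46 between the vehicles and 0.11 between the dosed groups. Cyp2d9, a P450 of that list, had a difference of 2.5, and 1.32 without library 1 of PCE 6 mmol/kg.

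Of 21 genes that process cysteine conjugates, 3 were higher and 2 lower at an unadjusted p under 0.05, also beside 4.17% and 3.44% of all genes, with a median of 0.18, and of 21 glutathione S-transferases 2 were higher and 1 lower, with a median of 0.03. Ggt1, γ-glutamyltransferase, which starts the breakdown of glutathione conjugates, had a difference of -0.03 (-0.35 to 0.28). Dpep1, the dipeptidase of the next step, was at -0.57, with PCE vehicle 0.44 above TCE vehicle. Ccbl1, a cysteine conjugate β-lyase, was at -0.31 (-0.70 to 0.09). Acy3, an aminoacylase of mercapturic acids, was at 108, 171 and 168 CPM with PCE 6 mmol/kg, 297 and 314 CPM with PCE vehicle, 207, 181 and 256 CPM with TCE 6 mmol/kg and 317, 316 and 289 CPM with TCE vehicle. Both dosed groups were below the vehicles and overlapped with neither, PCE below TCE throughout. Acy3 fell by 1.04 log2 units with PCE, its value with TCE was -0.52, and the difference was -0.52 (-0.99 to -0.05), or -0.33 without library 1 of PCE 6 mmol/kg. Fmo2, a flavin monooxygenase, was higher at 0.51 (adjusted p = 0.414 in edgeR).

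Among 26 organic ion transporters 2 were higher and 1 lower at an unadjusted p under 0.05, beside 4.17% and 3.44% of all genes. Their median was -0.01. Slc22a6, or OAT1, which carries organic anions into proximal tubule cells, had a difference of -0.28 (-0.72 to 0.15). Slc22a7, another organic anion transporter, was at 217, 239 and 172 CPM with PCE 6 mmol/kg, 364 and 543 CPM with PCE vehicle, 272, 257 and 270 CPM with TCE 6 mmol/kg and 724, 498 and 563 CPM with TCE vehicle. Both dosed groups were below both vehicle groups. Slc22a7 fell by 1.12 log2 units with PCE and by 1.16 with TCE, and the difference was 0.04 (-0.66 to 0.75). Slc7a13, an amino acid transporter of the S3 segment, fell by 1.21 with PCE and by 0.96 with TCE, with a difference of -0.25 (-0.80 to 0.30).

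Markers of tubular injury gave 3 higher of 26 and 0 lower at an unadjusted p under 0.05, beside 4.17% and 3.44% of all genes. Their median was 0.30, against -0.41 between the vehicles and 0.03 between the dosed groups. The 3 were Fga and Fgg, chains of fibrinogen, and Igfbp1, a binding protein of insulin-like growth factors. Igfbp1 was at 42.1, 4.55 and 15.4 CPM with PCE 6 mmol/kg, 1.5 and 2.42 CPM with PCE vehicle, 10.1, 9.59 and 7.16 CPM with TCE 6 mmol/kg and 7.37, 7.05 and 5.70 CPM with TCE vehicle. The dosed groups overlapped, PCE vehicle was below TCE vehicle, and the difference of 2.96 was 1.91 without library 1 of PCE 6 mmol/kg. Havcr1, the kidney injury molecule KIM-1, was at 5.96, 9.51 and 5.75 CPM with PCE 6 mmol/kg, 2.31 and 2.68 CPM with PCE vehicle, 7.45, 5.82 and 2.71 CPM with TCE 6 mmol/kg and 6.93, 2.62 and 4.21 CPM with TCE vehicle. All groups except PCE vehicle overlapped with PCE 6 mmol/kg, and the difference was 1.28 (-0.06 to 2.62). Lcn2, another injury marker, had a difference of 1.49 (-0.90 to 3.88), or 0.83 without library 1, and the direct comparison of the dosed groups gave -0.40. Nqo1, an NRF2 target, was at 0.21 (-0.16 to 0.58), and 1 of 23 NRF2 targets was higher, beside 4.17% of all genes. Cdkn1a, a p53 target that halts the cell cycle, was at 2.08, 2.03 and 1.8 CPM with PCE 6 mmol/kg, 0.653 and 1.02 CPM with PCE vehicle, 0.516, 0.519 and 1.14 CPM with TCE 6 mmol/kg and 1.05, 1.25 and 0.763 CPM with TCE vehicle. The libraries of PCE 6 mmol/kg were above all others, with a difference of 1.73 ± 0.53 (SE, adjusted p = 0.375 in edgeR). Of 23 p53 targets 3 were higher and 0 lower, beside 4.17% and 3.44% of all genes. Rad51b, a DNA repair gene, was at -0.63 (-2.13 to 0.87).

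At the lower matched doses of 0.22, 0.67 and 2 mmol/kg, edgeR called 0 genes in the difference, with 636, 2274 and 597 at an unadjusted p under 0.05, and DESeq2 called 0, 81 and 2. With GC and length slopes as covariates the counts at an unadjusted p under 0.05 were 712, 596 and 769. In the fit without covariates, 2.21% of genes were higher and 2.27% lower at 0.22 mmol/kg, 6.83% and 9.19% at 0.67 mmol/kg, and 1.98% and 2.23% at 2 mmol/kg. Of the 29 genes of the ATF4 list, 0 were higher and 1 lower at 0.22 mmol/kg, 0 and 3 at 0.67 mmol/kg, and 7 and 1 at 2 mmol/kg, with medians of -0.01, -0.04 and 0.32. Of the 25 cell cycle genes 0 were higher at any of these doses, while 17 were lower at 0.22 mmol/kg, 7 at 0.67 mmol/kg and 0 at 2 mmol/kg, with medians of -1.22, -0.83 and -0.07. Asns at 2 mmol/kg was at 12.5, 25.3 and 19.4 CPM after PCE and 3.97, 5.93 and 5.73 CPM after TCE. These groups did not overlap, and the difference was 2.64 (1.55 to 3.73, unadjusted p = 4.86e-05 in edgeR), beside 1.81 at 6 mmol/kg. PCE vehicle lay below TCE vehicle for Asns, and that gap enters both differences. Over 10 other settings, pooled vehicles among them, the Asns difference at 6 mmol/kg was 1.04 to 1.81. Acot2 at 2 mmol/kg was at 69.7, 71.1 and 73.0 CPM after PCE and 44.5, 58.2 and 47.2 CPM after TCE. The PCE libraries were above the TCE libraries, and the difference was 0.53. Over the 4 doses from low to high, the difference of Acot2 was -0.08, 0.31, 0.53 and 1.40, that of Trib3 0.89, 0.74, 1.28 and 3.66, and that of Chac1 0.36, 0.26, 1.46 and 3.93. All 4 doses share the same 5 vehicle libraries, so a gap between the vehicle groups enters each of these values. With the vehicle groups pooled, the values at 6 mmol/kg were 1.38 for Acot2, 3.01 for Trib3 and 3.33 for Chac1. The lower doses were not fitted with pooled vehicles. Adjusted over genes and the 4 doses together, Trib3 had an adjusted p of 0.0222 in edgeR and Chac1 and Acot2 had 0.0913.

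**Figure D5:**
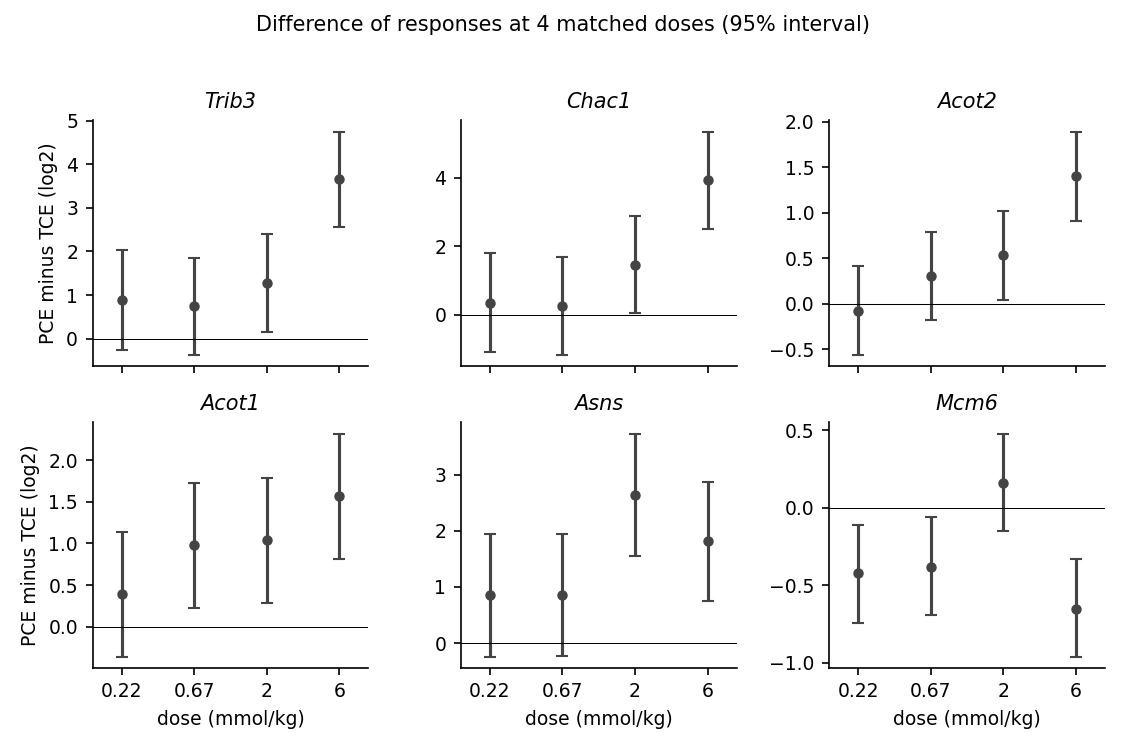
PCE response minus TCE response (y axis, log2) of 6 genes at 0.22, 0.67, 2 and 6 mmol/kg (x axis), with points for the fitted difference and bars for the 95% interval. Trib3 and Chac1 are at 3.66 and 3.93 at 6 mmol/kg, Asns is at 2.64 at 2 mmol/kg and 1.81 at 6 mmol/kg, and Mcm6 is at -0.65 at 6 mmol/kg.

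In liver the same difference at 6 mmol/kg called 0 genes in edgeR, and 1166 had an unadjusted p under 0.05. The test of liver minus kidney called 0, with 775 at an unadjusted p under 0.05 and 15 in DESeq2, so no gene's difference is shown to be particular to kidney after adjustment in edgeR. Trib3 had a difference of 3.66 in kidney and 0.57 (-0.30 to 1.43) in liver, and liver minus kidney was -3.09 (adjusted p = 0.155 in edgeR). Creb3l3, a transcription factor of lipid metabolism, had 3.10 in kidney and -0.27 in liver (liver minus kidney -3.37, adjusted p = 0.137 in edgeR). Acot2 had 1.40 in kidney and 0.15 in liver, where it rose by 2.61 with PCE and by 2.47 with TCE, among 2.29% and 0.547% of liver genes called higher. Chac1 had 3.93 in kidney and 1.07 in liver. Sesn2 had 1.06 in kidney and 1.08 in liver, and the interval of liver minus kidney was -0.81 to 0.82.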

How the data were processed

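Kidney and liver each have 1 deposited table of read counts by RefSeq transcript, a column for every library and no normalization, per the file headers. The deposited columns at 0.22 and 0.67 mmol/kg carry a decimal dose line and were read under the unit of expected counts, but every value was a whole number so rounding had no effect. The build mm10 and the tools HTSeq, TopHat2 2.0.10 and CASAVA 1.8.2 stand in the submitters' processing notes. The sources used here give no strand setting, annotation version or filter, so reads of overlapping or antisense genes cannot be told apart. Reads without a feature (20.74 to 27.53% of the 11 libraries) and ambiguous reads (19.68 to 21.39%) were left out of totals and tests.

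The 33392 transcripts were summed per symbol to 24032 genes, with 3718 of 3844 missing or damaged symbols filled by RefSeq accession. One edgeR 4.0.16 model (R 4.3.3) took all 29 kidney libraries, with TMM scaling, filterByExpr, 1 mean per group and a robust quasi-likelihood fit. Adjusted p are Benjamini-Hochberg over all genes tested. Liver minus kidney came from a model of all 58 libraries. CPM use TMM-scaled library sizes. Gene positions and promoters are RefSeq's on GRCm38.p6. The model was also run on simulated counts that held no outlying library and no gap between the vehicle groups. That run does not show how stable the calls are in these data. Alternatives were DESeq2 1.42.0, other scaling, filters, naming and covariates, a replicate block, pooled vehicles, and 1 library left out at a time.

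Named by rule were called genes with a mean of at least 1 CPM (up to 10 a direction), the best called member of each function list, genes of smallest p filling up to 5 a direction, up to 3 called a direction at lower doses, and, whatever their result, Cyp4a14, Cyp4a10, Acot1, Vnn1, Cyp2e1, Ggt1, Ccbl1, Slc22a6, Nqo1, Havcr1, Lcn2, Cdkn1a and Rad51b. All other named genes were picked with their values in view. The comparison and the gene lists were chosen with earlier results of these data known. One gene is not reported here.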

Additional observations from a re-analysis of the deposited data

Results flagged for a closer look

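Chac1, Trib3 and Acot2 were called by the test of the difference itself, in the fit of all kidney libraries. Fitted on the 11 libraries alone they did not pass (adjusted p = 0.563, 0.207 and 0.542 in edgeR). Chac1 and Acot2 also lost their calls in most fits that left out 1 library. In kidney at 6 mmol/kg, PCE response minus TCE response was 3.93 for Chac1, 3.66 for Trib3 and 1.40 for Acot2 on the log2 scale (adjusted p = 0.038, 0.00556 and 0.0365 in edgeR). For each gene all 3 libraries of PCE 6 mmol/kg were above all 3 of TCE 6 mmol/kg. The genes were picked by a test on these same libraries, so that order adds no separate support. Its share over all genes was not counted.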

How the results depend on the processing

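The count of 3 genes called at 6 mmol/kg was 3 with DESeq2 size factors, with sums per RefSeq gene and without other-tissue markers, and 2 with no count filter and with a replicate block, both without Chac1 (adjusted p = 0.0632 and 0.115 in edgeR). It was 49 in DESeq2's test, 0 with the 11 libraries alone, 8 with GC and length slopes as covariates, 123 with pooled vehicles, 1 adjusted over 4 doses and 0 to 39 with 1 library left out. DESeq2's test called 2 genes at 2 mmol/kg, 81 at 0.67 mmol/kg, 864 for PCE, 162 for TCE and 15 for liver minus kidney. The 11 libraries alone gave 189 for PCE and 0 for TCE, the covariates 878 and 47, and no count filter 13 for TCE. With 1 library left out the counts were 0 to 1 at 2 mmol/kg, 0 to 28 at 0.67, 0 to 1 at 0.22, 62 to 842 for PCE, 0 to 54 for TCE, 0 for the vehicles, and 0 to 12 for liver minus kidney. The cause was not tested. Deviations from group means correlated at a median of -0.01 over 15 same-numbered pairs (-0.25 to 0.26) and -0.005 over 30 others (-0.35 to 0.35). Deviations within such small groups must cancel, so these values cannot show whether a replicate number marks a pair or batch. Pooled vehicles turned the sign of Lcn2 (-0.40), Phgdh (0.60), Atf4 (0.12) and Slc22a7 (-0.35). Leaving out 1 library turned it for Ggt1 (-0.10 to 0.07), Fabp1 (-0.14 to 0.66), Phgdh (-0.29 to 0.24), Atf4 (-0.70 to 0.37), Slc22a7 (-0.22 to 0.36) and Ucp1 (-8.25 to 0.29). Without PCE 6 mmol/kg replicate 1 the differences of Nqo1 (0.04), Cyp2e1 (0.03), Cpt1a (0.09) and Slc7a13 (-0.10) moved by over 1.5 times, as did that of Slc22a6 without TCE vehicle replicate 3 (-0.16) and of Rad51b without TCE 6 mmol/kg replicate 2 (-0.02) or 3 (-1.08). With 2 PCE vehicle libraries, the 95% interval of a gene's difference reached a median of 0.51 log2 units to each side.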

Other observations

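Abca1 and Insig1 did not pass the adjustment and were picked with their values known. Abca1, the cholesterol exporter, was at 127, 87.8 and 126 CPM with PCE 6 mmol/kg, 39.3 and 22.2 CPM with PCE vehicle, 52.4, 52.6 and 33.5 CPM with TCE 6 mmol/kg and 45.2, 40.0 and 49.7 CPM with TCE vehicle. PCE 6 mmol/kg was above every other library, and the difference was 1.85 ± 0.41 (SE, adjusted p = 0.195 in edgeR). Insig1, a brake on sterol synthesis, was at 109, 121 and 116 CPM with PCE 6 mmol/kg, 50.9 and 65.4 CPM with PCE vehicle, 74.3, 80.3 and 56.8 CPM with TCE 6 mmol/kg and 64.9, 78.5 and 75.9 CPM with TCE vehicle. Again PCE 6 mmol/kg stood above the rest, with a difference of 1.04 ± 0.25 (SE, adjusted p = 0.196 in edgeR). Of 21 genes of cholesterol synthesis, 2 were higher and 1 lower at an unadjusted p under 0.05, beside 4.17% and 3.44% of all genes. Their median was -0.16.

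Of 45 respiratory chain subunits 1 was higher and 0 lower at an unadjusted p under 0.05, with a median of -0.02. Of 82 ribosomal proteins 1 was higher and 0 lower, with a median of 0.07. Over all genes 4.17% were higher and 3.44% lower. Albumin, a hepatocyte transcript, was at 14.5, 11.7 and 16.8 CPM with PCE 6 mmol/kg, 9.07 and 11.8 CPM with PCE vehicle, 28.5, 6.85 and 11.7 CPM with TCE 6 mmol/kg and 7.06, 82.9 and 21.6 CPM with TCE vehicle. The 9 hepatocyte markers tested had a median of 0.88 in the difference, -0.93 between the vehicles and -0.14 between the dosed groups. In the difference 0 were higher and 1 lower at an unadjusted p under 0.05, beside 4.17% and 3.44% of all genes. The brown fat gene Ucp1 was at 0.360, 0.156 and 111 CPM with PCE 6 mmol/kg, 2.38 and 9.40 CPM with PCE vehicle, 40.5, 107 and 0.974 CPM with TCE 6 mmol/kg and 3.33, 3.10 and 5.09 CPM with TCE vehicle. Macrophage markers, 9 of 10 in the table, summed to 83.9 to 118 CPM with PCE 6 mmol/kg, 91.8 to 108 with PCE vehicle, 111 to 117 with TCE 6 mmol/kg and 142 to 166 with TCE vehicle. Csf1r made up most of that sum in the vehicles, and without it the sums were 42.4 to 67.2 CPM with PCE 6 mmol/kg, 29.7 to 34.3 with PCE vehicle, 46.7 to 58.2 with TCE 6 mmol/kg and 44.7 to 58.8 with TCE vehicle. The 8 markers tested had a median of 0.60 in the difference and -0.67 between the vehicles. It was 0.68 with PCE against its vehicle and -0.03 with TCE against its vehicle. At an unadjusted p under 0.05, 1 was higher in the difference, beside 4.17% of all genes. Between the vehicles 5 were lower at an unadjusted p under 0.05, beside 4.09% of all genes. The part of these markers in the differences was not tested.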
